A study of Mus musculus with 12 samples.

Results

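The genes followed here are 36 interferon-stimulated genes, chosen by name from the 54532 genes of the count table because type I or type II interferon is known to induce them. All 36 were found in the table, and all 36 were among the 24642 genes that passed the cutoff on low counts. RNA was sequenced from whole kidneys of 12 mice, 18 days old and on a C57BL/6J background, in 4 groups of 3. Every mouse carried *Pkd1* RC/F, that is, the RC missense allele over a floxed allele. The noncystic groups had no Cre and are written *Pkd1* RC/+. The cystic groups also carried Ksp-Cre, which removes the floxed allele in kidney tubule epithelium but not in other cells of the kidney, and are written *Pkd1* RC/-. Each setting had a *Pkd2* +/+ group and a group homozygous for Δ17, a germline CRISPR/Cas9 deletion of the miR-17 binding motif from the *Pkd2* 3′-UTR. The groups are therefore noncystic *Pkd2* +/+ (mice 19, 20 and 21), noncystic *Pkd2* Δ17/Δ17 (22, 23 and 24), cystic *Pkd2* +/+ (25, 26 and 27) and cystic *Pkd2* Δ17/Δ17 (28, 29 and 30). Values of single mice are given below in this order of numbers, as CPM, the counts scaled for library size and composition.

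Interferons bind receptors on the cell surface that signal through the kinases Jak1 and Tyk2 to transcription factors that include Stat2 and Irf9. Their complex binds the interferon-stimulated response element of its target genes, whereas type II interferon acts mainly through the gamma-activated site. The induced genes encode enzymes, GTPases, RNA-binding proteins and membrane proteins that restrict viruses, sensors of foreign nucleic acid, and parts of the antigen processing machinery. Macrophages and kidney epithelial cells can both express them.

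The promoters are shown first because the response element is what many of these genes share. RefSeq promoter sequence on GRCm38.p6, from 250 bases before to 50 bases after each gene's start, was given for 26 of the 36 genes. The element was searched on both strands as GAAANNGAAA, and 14 of the 26 genes (53.8%) held it, against 1079 of all 27025 genes with a promoter (3.99%). The gamma-activated site, searched as TTCNNNGAA on both strands, was found in 5 of the 26 (19.2%), against 2582 of 27025 (9.55%). A match is a run of letters and not a measured binding site. The windows below come from the genes that passed the test between cystic and noncystic *Pkd2* +/+ kidneys and held the element, 1 window a gene, and from the near-identical pair *Ifit3* and *Ifit3b*, which was added after values were seen. Each is printed from 5′ to 3′ on the strand of its gene, with the bases of every match in capitals, so that an element on the other strand reads as TTTC.
Isg15, chr4:156200871-156200900, minus strand: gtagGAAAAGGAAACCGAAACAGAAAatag
Oas1a, chr5:120907526-120907555, minus strand: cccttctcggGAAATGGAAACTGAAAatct
Oas3, chr5:120777715-120777744, minus strand: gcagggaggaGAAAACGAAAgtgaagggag
Gbp2, chr3:142620594-142620623, plus strand: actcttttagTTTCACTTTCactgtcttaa
Ifih1, chr2:62646206-62646235, minus strand: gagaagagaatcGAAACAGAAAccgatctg
Rsad2, chr12:26456553-26456582, minus strand: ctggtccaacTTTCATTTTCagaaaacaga
Bst2, chr8:71537583-71537612, minus strand: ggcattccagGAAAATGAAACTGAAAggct
Ifit3, chr19:34583363-34583392, plus strand: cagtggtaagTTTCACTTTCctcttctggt
Ifit3b, chr19:34607759-34607788, plus strand: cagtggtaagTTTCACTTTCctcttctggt
In *Isg15*, 3 matches overlapped within 1 window, and *Oas1a* and *Bst2* each had 2 that overlapped. The windows of *Ifit3* and *Ifit3b* were the same 30 bases at different places of chromosome 19. *Rsad2*, which fell in cystic kidneys, held the element as did the 6 genes of this group that rose.

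Total counts per mouse ran from 18800307 to 24453033, and the 36 genes together had 16682 to 45141 reads per mouse. Sex is not in the labels, and *Xist* was between 431 and 811 CPM in 6 mice (19, 22, 23, 25, 26, 28) and at most 7.74 CPM in the rest. *Pkd2* ranged from 194 to 219 CPM in noncystic and 213 to 233 CPM in cystic +/+ mice, and from 271 to 286 CPM in noncystic and 307 to 337 CPM in cystic Δ17/Δ17 mice, so that every Δ17/Δ17 mouse lay above every +/+ mouse, as the labels divide them. Defining genes of kidney tubule and podocytes summed to 10007 to 12521 CPM in the noncystic mice and to 5699 to 9196 CPM in the cystic mice. The 11 markers of macrophages summed to 179 to 225 CPM in the 6 noncystic mice. They summed to 507, 701 and 609 CPM in the cystic *Pkd2* +/+ mice and to 354, 361 and 492 CPM in the cystic *Pkd2* Δ17/Δ17 mice. No marker was at 0 in any mouse, and all 11 were higher in cystic +/+ kidneys by the test used below, against 16.9% of all genes. Their part in the results below was not tested, and in whole kidneys fewer cells of a type and less RNA per cell cannot be told apart. Markers of natural killer cells summed to 0.489 to 2.30 CPM, and those of plasmacytoid dendritic cells to 1.96 to 6.05 CPM.

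The library of mouse 26, a cystic *Pkd2* +/+ kidney, stood apart in these genes. It had the highest CPM of its group in 36 of 36 genes and the highest of all 12 mice in 32. Its CPM was 1.16 to 3.43 times the mean of its group mates, with a median ratio of 1.86 over the 36 genes against 0.983 over all genes tested, and it exceeded 1.5 times that mean in 25 genes and 2 times in 15 (11.5% and 7.40% of all genes tested). The ratio was smallest for *Ly6e* (1.16), *Samhd1* (1.24) and *Mx1* (1.32) and greatest for *Zbp1* (3.43), *Ifit1* (3.11) and *Usp18* (2.65). Macrophage markers in mouse 26 were 1.26 times the mean of its group mates, and most other marker lists 0.684 (neutrophils) to 1.15 (T cells) times. Natural killer cell markers were at 2.77 times, on low sums of 2.30 CPM against 0.813 and 0.848 CPM in mice 25 and 27. None of these 7 genes was called in any comparison below. Mouse 25 was lowest of its group in 33 of the 36 genes. As a log2 difference from the mean of the noncystic *Pkd2* +/+ mice, the median over the 36 genes was 0.08 in mouse 25, 1.33 in mouse 26 and 0.52 in mouse 27, and between -0.25 and 0.14 in the other 9 mice. The median coefficient of variation among the 3 mice of a group was 40.3% in the cystic *Pkd2* +/+ group, 12.9% and 14.9% in the noncystic groups and 10% in the cystic *Pkd2* Δ17/Δ17 group, where over all genes tested it ran from 15.1% to 17.5%. The counts of calls that rest on the cystic *Pkd2* +/+ group are therefore given with and without mouse 26.

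**Figure D1:**
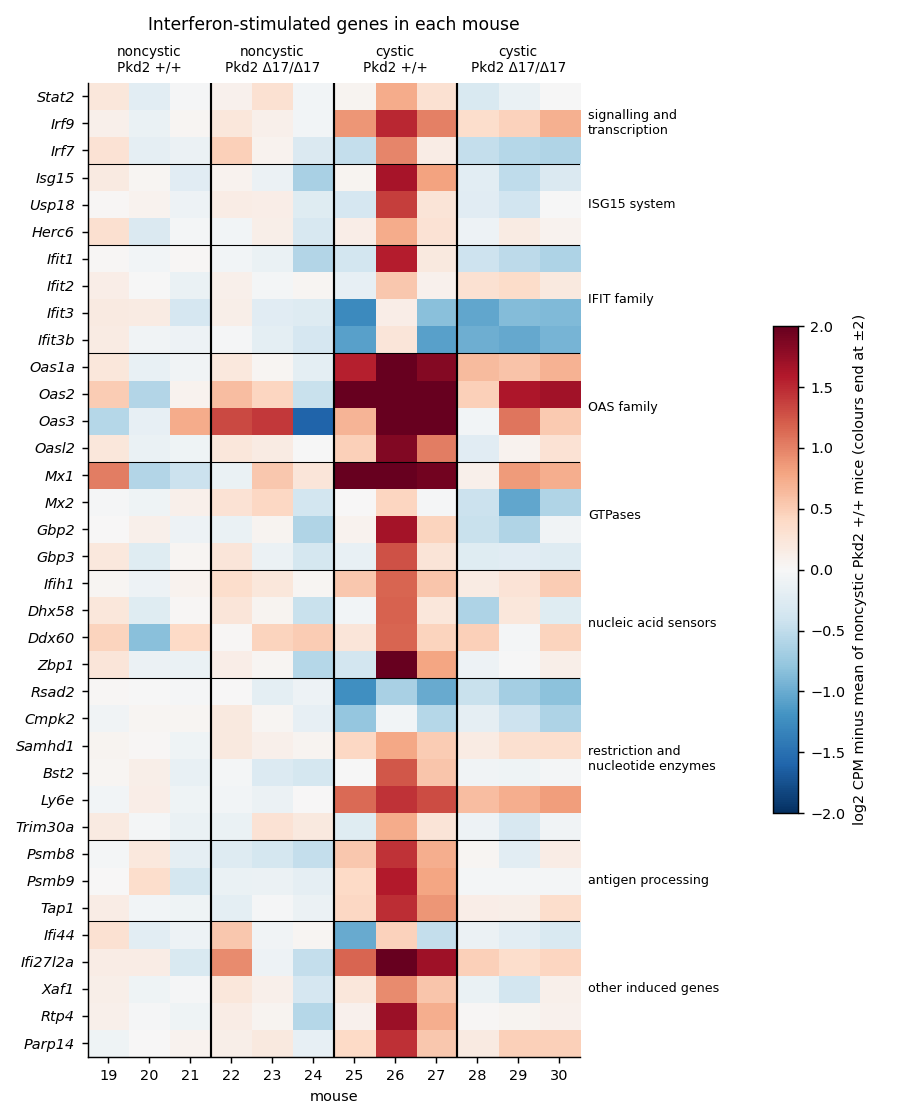
Heat map of the 36 interferon-stimulated genes (rows, by role) in the 12 mice (columns, by group), as log2 CPM (prior count 2) minus the mean of the 3 noncystic *Pkd2* +/+ mice, red above and blue below it, with colours that end at 2 and -2. Mouse 26 holds the highest value of all mice in 32 of the 36 genes, *Oas1a*, *Oas2* and *Ly6e* are red in all 3 cystic *Pkd2* +/+ mice, and *Rsad2* is blue in all 6 cystic mice.

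The first comparison asked how these genes differ between cystic and noncystic kidneys with normal *Pkd2*. Of the 36, 19 were higher and 2 lower in cystic kidneys at an adjusted p under 0.05 (edgeR, quasi-likelihood test, Benjamini-Hochberg adjustment over all 24642 genes), where 16.9% of all genes were higher and 14.2% lower. The median log2 fold change was 0.69 over the 36 genes and 0.02 over all genes tested, and 31 of the 36 were positive. Without mouse 26 the same edgeR test called 13 higher and 5 lower, with 14.9% and 12.5% of all genes called, and the median fell to 0.30. The calls of *Isg15*, *Gbp2*, *Bst2*, *Oas3*, *Xaf1* and *Rtp4* were lost without that mouse, and *Ifit3*, *Ifit3b* and *Ifi44* became lower. When the 6 mice were left out 1 at a time, 14 calls (13 higher and 1 lower) held every time. Of the others, *Gbp2* was also lost without mouse 19, 20 or 21, *Oas3* without 19, 20 or 27, *Isg15* and *Bst2* without 21, and *Xaf1* without 20 or 21. Without mouse 25, 26 genes were higher and 1 lower, against 3895 and 3321 of all 24878 genes then tested. With library totals in place of the composition factors, 22 were higher and 1 lower, against 6251 and 2468 of all 24642 genes. The median over all genes then moved to 0.18.

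The second comparison asked what the *Pkd2* deletion changes in cystic kidneys, and it shares the cystic *Pkd2* +/+ mice with the first. No gene of the 36 was higher and 11 were lower with the deletion, against 1.19% of all genes higher and 1.04% lower in the same edgeR test. In 21 genes every Δ17/Δ17 mouse lay below every +/+ mouse, against 10.2% of all genes tested. The median log2 fold change was -0.77 over the 36 genes and 0.00 over all genes tested. Without mouse 26, 4 were lower and 1, *Rsad2*, was higher, against 0.604% and 1.01% of all genes, and the median was -0.37. The lower calls of *Oas1a*, *Oas2* and *Ly6e* held whichever of the 6 mice was left out, while *Oasl2* kept its call without mouse 26 and lost it without mouse 27, 28 or 29. The calls of *Gbp2*, *Isg15*, *Irf9*, *Ifi27l2a*, *Psmb9* and *Tap1* were lost without any 1 of mice 26, 27, 28 and 29. *Psmb8* lost its call without mouse 26, 28 or 29, and *Ifi27l2a* and *Psmb9* also without mouse 30. The number of calls moved with the mouse left out, from 23 without mouse 25 to 5, 4, 3, 3 and 10 without mice 26, 27, 28, 29 and 30. Calls over all genes moved too. With all mice 256 of 24642 genes were lower, and without mouse 25 it was 392 of 24878. Without mice 26, 27, 28, 29 and 30 the genes lower were 149, 60, 44, 43 and 360, of 24580 to 24676 tested. With *Xist* as a covariate the calls of *Gbp2* and *Tap1* were lost, and that of *Gbp2* in the first comparison.

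**Figure D2:**
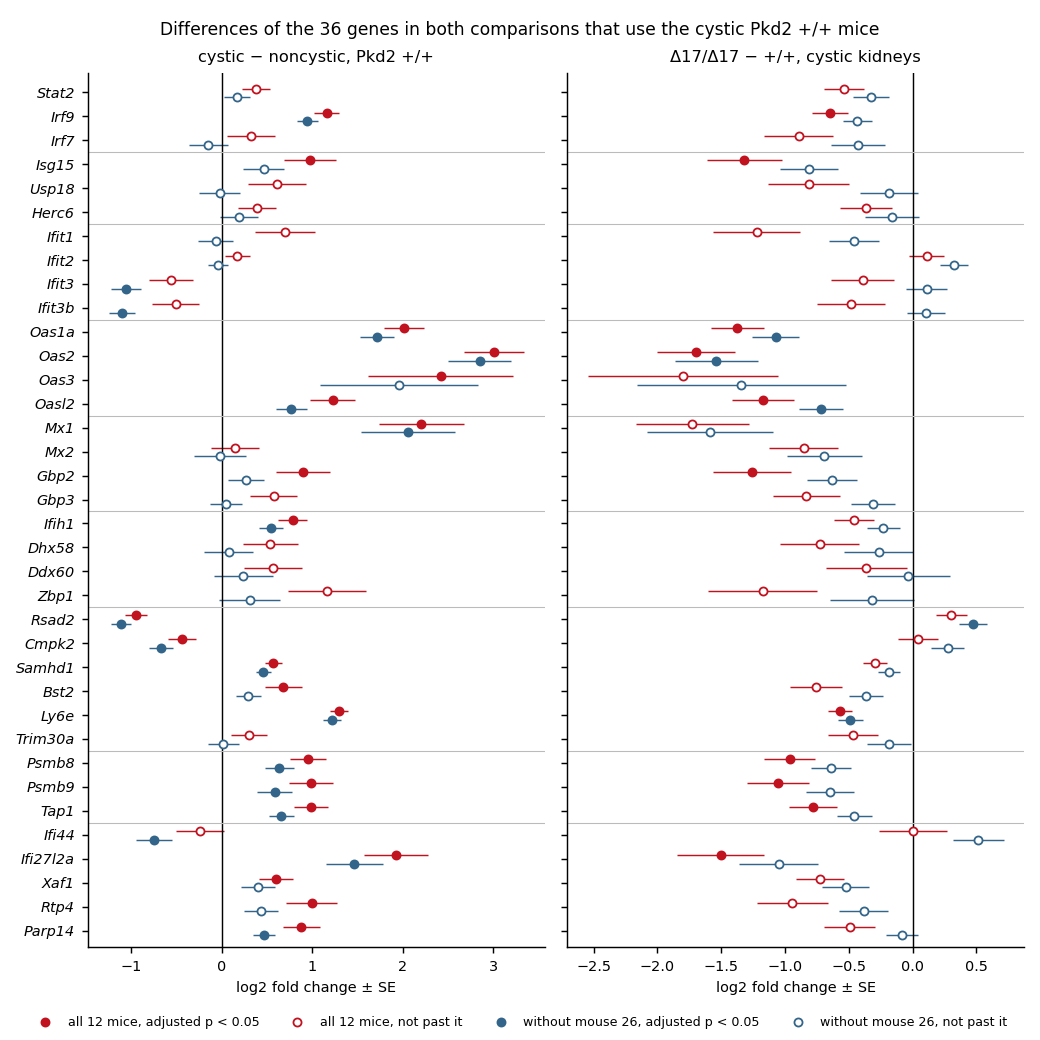
Log2 fold changes with standard errors of the 36 genes for cystic against noncystic *Pkd2* +/+ kidneys (left) and for Δ17/Δ17 against +/+ in cystic kidneys (right), with all 12 mice (red) and without mouse 26 (blue), filled where edgeR's adjusted p was under 0.05. Most blue points lie nearer to 0 than the red ones, while those of *Ifit3*, *Ifit3b*, *Ifi44*, *Rsad2* and *Cmpk2* lie farther below 0 on the left.

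Among the 3 genes of signalling and transcription in the set, *Irf9* (on GRCm38 at chr14:55603571-55610030), the DNA-binding subunit of the Stat complex, was the one called. It stood at 37.4, 31.6 and 35.8 CPM in the noncystic *Pkd2* +/+ mice, 40.8, 37.3 and 33.5 in the noncystic Δ17/Δ17 mice, 64.4, 99.5 and 70.2 in the cystic +/+ mice and 44.3, 48.2 and 57.05 in the cystic Δ17/Δ17 mice. The 3 cystic +/+ mice lay above all others, and the cystic Δ17/Δ17 mice lay between them and the noncystic mice. The log2 fold change was 1.16 (SE 0.14, edgeR adjusted p = 8.79e-06) in cystic +/+ kidneys, where SE is the standard error, and -0.65 (SE 0.14, edgeR adjusted p = 0.0241) with the deletion in cystic kidneys. Without mouse 26 these were 0.94 (adjusted p = 1.16e-05) and -0.43 (adjusted p = 0.0720) in edgeR's test, so the second was no longer called. That call was also lost without mouse 27, 28 or 29. *Irf9* overlaps *Rnf31* on the same strand. Its partner *Stat2* had 30.2 ± 4.70 CPM (SD, n = 3) in noncystic and 39.3 ± 9.79 CPM (SD, n = 3) in cystic +/+ kidneys, and *Irf7*, which amplifies interferon production, had 19.6 ± 3.64 and 24.6 ± 12.4 CPM (SD, n = 3 each). Neither passed the test (edgeR adjusted p = 0.0813 and 0.412), and *Irf7* turned to -0.15 without mouse 26.

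The OAS enzymes, which make oligoadenylates that activate RNase L on sensing double-stranded RNA, had 3.41 times the summed CPM of noncystic +/+ kidneys in cystic +/+ kidneys, the greatest ratio of the 9 roles (2.71 times without mouse 26), and all 4 rose. *Oas2* (chr5:120730333-120749853) stood at 3.63, 1.65 and 2.65 CPM in noncystic +/+, 3.92, 3.44 and 1.82 in noncystic Δ17/Δ17, 16.8, 25.9 and 21.6 in cystic +/+ and 3.56, 7.92 and 8.27 CPM in cystic Δ17/Δ17 mice. *Oas1a* (chr5:120896256-120907521) stood at 4.21, 3.25 and 3.41 CPM in noncystic +/+, 4.20, 3.71 and 3.14 in noncystic Δ17/Δ17, 10.7, 20.2 and 13.04 in cystic +/+ and 5.62, 5.38 and 5.92 CPM in cystic Δ17/Δ17 mice. In both genes the cystic +/+ mice lay above all other 9 mice, and in *Oas1a* the cystic Δ17/Δ17 mice lay in turn above all noncystic mice. *Oas2* rose by a log2 fold change of 3.01 (SE 0.33, edgeR adjusted p = 3.15e-06), the greatest of the 36, and *Oas1a* by 2.01 (SE 0.22, edgeR adjusted p = 2.48e-06). With the deletion in cystic kidneys *Oas2* changed by -1.70 (SE 0.31, edgeR adjusted p = 0.00922) and *Oas1a* by -1.37 (SE 0.21, edgeR adjusted p = 0.00323). Both calls of both genes held without mouse 26, at 2.85 (adjusted p = 1.21e-05) and -1.54 (adjusted p = 0.0233) for *Oas2* and at 1.71 (adjusted p = 4.33e-06) and -1.07 (adjusted p = 0.00663) for *Oas1a* in the same edgeR test.

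*Oasl2* (chr5:114896936-114912234), an OAS-like protein, had the most reads of the family. Its levels were 16.5, 12.9 and 13.3 CPM in noncystic +/+, 16.6, 15.8 and 14.1 in noncystic Δ17/Δ17, 19.8, 51.5 and 28.8 in cystic +/+ and 12.1, 14.9 and 17.3 CPM in cystic Δ17/Δ17 mice. The log2 fold change was 1.22 (SE 0.25, edgeR adjusted p = 9.91e-04) with cystic disease and -1.17 (SE 0.25, edgeR adjusted p = 0.0204) with the deletion in cystic kidneys, and without mouse 26 the values were 0.77 (adjusted p = 0.00299) and -0.72 (adjusted p = 0.0492) in the same edgeR test. Cystic Δ17/Δ17 mice overlapped the noncystic mice in this gene. *Oas3*, the long form of the enzyme, had 0 to 40 reads per mouse and none in mouse 24, and its log2 fold change of 2.42 (SE 0.80, edgeR adjusted p = 0.0291) rested on groups that overlapped and was 1.96 (adjusted p = 0.114) without mouse 26 by the same test. Of the 75-base stretches of the exons of *Oas1a*, 47.6% also occur in another gene, most in *Oas1g*. Reads that fit both genes alike may not have been counted. The 4 OAS genes lie on chromosome 5, the chromosome of *Pkd2*, at 10.4 Mb (*Oasl2*) to 16.4 Mb (*Oas1a*) from it.

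Isg15 is a ubiquitin-like protein attached to other proteins, Herc6 is a ligase that attaches it and Usp18 removes it and damps receptor signalling. *Isg15* (chr4:156199424-156200818) stood at 10.7, 9.75 and 8.09 CPM in noncystic +/+, 9.92, 8.73 and 5.997 in noncystic Δ17/Δ17, 9.83, 29.96 and 16.6 in cystic +/+ and 8.17, 6.60 and 7.74 CPM in cystic Δ17/Δ17 mice. Mouse 25 lay within the noncystic range and mouse 26 was highest. *Isg15* rose by a log2 fold change of 0.97 (SE 0.29, edgeR adjusted p = 0.0160) in cystic kidneys and changed by -1.32 (SE 0.29, edgeR adjusted p = 0.0277) with the deletion. Without mouse 26 the values were 0.47 (adjusted p = 0.151) and -0.81 (adjusted p = 0.0939) in the same edgeR test, neither of them called. The deletion call was also lost without mouse 27, 28 or 29. *Usp18* ranged from 3.80 to 4.96 CPM in noncystic mice and from 3.52 to 11.8 CPM in cystic +/+ mice, and *Herc6* from 4.13 to 6.49 CPM in noncystic and from 5.65 to 8.71 CPM in cystic +/+ mice. Neither passed the test in either comparison.

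The IFIT proteins bind viral RNA, and with all mice none of their 4 genes was called in either comparison. *Ifit3* (chr19:34583531-34588731), the most abundant of them in CPM, stood at 60.4, 60.2 and 42.3 CPM in noncystic +/+, 58.1, 45.9 and 44.8 in noncystic Δ17/Δ17, 22.1, 58.6 and 29.99 in cystic +/+ and 25.96, 29.2 and 29.01 CPM in cystic Δ17/Δ17 mice. Mice 25 and 27 and all 3 cystic Δ17/Δ17 mice lay below every noncystic mouse, and mouse 26 lay among the noncystic mice. With all mice the log2 fold change in cystic +/+ kidneys was -0.56 (SE 0.25, edgeR adjusted p = 0.0992) for *Ifit3* and -0.51 (SE 0.26, edgeR adjusted p = 0.163) for *Ifit3b*, neither of them called. Without mouse 26 both were called lower, at -1.06 (adjusted p = 1.19e-04) and -1.10 (adjusted p = 3.01e-05) in edgeR's test. *Ifit1* ranged from 5.997 to 9.21 CPM in noncystic mice and stood at 7.01, 26.9 and 10.3 CPM in cystic +/+ mice, with a log2 fold change of 0.70 that was -0.06 without mouse 26. *Ifit2* ranged from 25.9 to 41.9 CPM over all 12 mice and was called in neither comparison. *Ifit3* and *Ifit3b* share 41.1% and 35.7% of their 75-base stretches with another gene, most with each other. Reads that fit both alike may not have been counted.

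The antiviral GTPases were mostly at low levels. *Gbp3* (chr3:142560026-142573209), a guanylate-binding protein and the most abundant of the 4, stood at 19.8, 14.4 and 17.7 CPM in noncystic +/+, 20.3, 15.8 and 13.4 in noncystic Δ17/Δ17, 15.4, 41.7 and 20.4 in cystic +/+ and 14.4, 14.7 and 14.3 CPM in cystic Δ17/Δ17 mice. Mouse 26 alone lay far above the noncystic range, and at 0.57 (SE 0.26, edgeR adjusted p = 0.113) the log2 fold change was not called. *Gbp2*, which coats the vacuoles of intracellular pathogens, had 11.5, 34.9 and 14.97 CPM in cystic +/+ mice against 7.15 to 11.7 in noncystic mice and was called in both comparisons, with log2 fold changes of 0.90 (SE 0.30, edgeR adjusted p = 0.0318) and -1.26 (SE 0.31, edgeR adjusted p = 0.0409). Neither call held without mouse 26, at 0.27 and -0.63, and the deletion call was also lost without mouse 27, 28 or 29. *Mx1*, a nuclear GTPase against influenza viruses whose C57BL/6 allele makes no working protein, had 3 to 14 reads per noncystic mouse and 31 to 43 per cystic +/+ mouse. It rose by 2.20 (SE 0.47, edgeR adjusted p = 0.00149) and kept that call without mouse 26, at 2.06 (adjusted p = 0.00636) in the same edgeR test. *Mx2*, its cytoplasmic relative, stood at 2.31 ± 0.165 CPM in noncystic and 2.57 ± 0.487 CPM in cystic +/+ kidneys (SD, n = 3 each) and was not called.

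Among the 4 sensors of nucleic acid in the set, *Ifih1* (chr2:62595798-62646255), which encodes the double-stranded RNA sensor MDA5, was the one called higher in cystic kidneys. It stood at 13.8, 12.5 and 14.2 CPM in noncystic +/+, 17.1, 15.8 and 13.9 in noncystic Δ17/Δ17, 19.6, 30.2 and 19.9 in cystic +/+ and 15.1, 16.3 and 19.1 CPM in cystic Δ17/Δ17 mice. The cystic +/+ mice lay above all 9 other mice, by a small margin over mouse 30. The log2 fold change of 0.78 (SE 0.16, edgeR adjusted p = 0.00101) was 0.55 (adjusted p = 0.00481) without mouse 26 in edgeR's test, and with the deletion the change of -0.46 was not called. *Zbp1*, a sensor of Z-form nucleic acid, had 1.66, 9.40 and 3.81 CPM in cystic +/+ mice and 1.43 to 2.60 CPM in noncystic mice. Its log2 fold change was 1.16, with an edgeR adjusted p of 0.0503, just outside the threshold. Without mouse 26 it was 0.31 (adjusted p = 0.561) in the same edgeR test. *Dhx58* and *Ddx60*, helicases of the same pathway, passed neither test.

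The restriction factors and nucleotide enzymes held the gene of highest level and both genes that fell in cystic kidneys. *Ly6e* (chr15:74955051-74959905), a lipid-anchored surface protein that restricts the entry of coronaviruses, stood at 359, 406 and 351 CPM in noncystic +/+, 356, 343 and 372 in noncystic Δ17/Δ17, 815, 1011 and 921 in cystic +/+ and 573, 615 and 666 CPM in cystic Δ17/Δ17 mice. The cystic +/+ mice were highest, the cystic Δ17/Δ17 mice next and the noncystic mice lowest, and neither cystic group overlapped any other group. *Ly6e* rose by a log2 fold change of 1.30 (SE 0.10, edgeR adjusted p = 7.67e-08) in cystic kidneys, a fold of 2.46, and with the deletion changed by -0.57 (SE 0.10, edgeR adjusted p = 0.00669). Without mouse 26 the values were 1.22 (adjusted p = 2.34e-07) and -0.49 (adjusted p = 0.0180) in the same edgeR test. *Samhd1* (chr2:157097533-157135265), which destroys the nucleotides that retroviruses need, stood at 43.3, 42.5 and 39.5 CPM in noncystic +/+, 47.6, 44.8 and 43.3 in noncystic Δ17/Δ17, 55.8, 71.3 and 59.2 in cystic +/+ and 46.97, 52.3 and 52.6 CPM in cystic Δ17/Δ17 mice. It rose by 0.57 (SE 0.09, edgeR adjusted p = 1.45e-04), without overlap between the cystic +/+ mice and any other group, and its log2 fold change with the deletion was -0.29 (SE 0.09, edgeR adjusted p = 0.122). Without mouse 26 the rise was 0.46 (adjusted p = 6.98e-04) in edgeR's test.

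*Rsad2* (chr12:26442746-26456452), which encodes the radical enzyme viperin, ran against the set. It stood at 81.9, 80.1 and 79.1 CPM in noncystic +/+, 80.4, 70.1 and 75.1 in noncystic Δ17/Δ17, 34.1, 51.1 and 40.02 in cystic +/+ and 58.7, 50.3 and 45.3 CPM in cystic Δ17/Δ17 mice. All 6 cystic mice lay below all 6 noncystic mice. The log2 fold change was -0.95 (SE 0.12, edgeR adjusted p = 1.45e-05) in cystic +/+ kidneys and 0.30 (SE 0.12, edgeR adjusted p = 0.253) with the deletion in cystic kidneys. Mouse 26 was the highest of its group in *Rsad2* too, and these became -1.12 (adjusted p = 1.52e-06) and 0.47 (adjusted p = 0.0376) without it, and the second was then called. *Cmpk2* (chr12:26469204-26479837), the neighbouring mitochondrial nucleotide kinase, stood at 34.2, 37.1 and 36.9 CPM in noncystic +/+, 41.4, 37.2 and 32.02 in noncystic Δ17/Δ17, 21.1, 34.6 and 24.3 in cystic +/+ and 31.6, 27.05 and 23.6 CPM in cystic Δ17/Δ17 mice. In cystic +/+ kidneys it fell, the log2 fold change being -0.44 (SE 0.15, edgeR adjusted p = 0.0399). That call was lost when any 1 of mice 19, 20, 21, 25 or 27 was left out, and when library totals replaced the composition factors. Bst2, or tetherin, holds budding viruses at the membrane, and *Bst2* rose by 0.68 (SE 0.20, edgeR adjusted p = 0.0166), a call that was lost without mouse 26 (0.29) or mouse 21. *Trim30a*, a TRIM protein, was not called in either comparison.

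**Figure D3:**
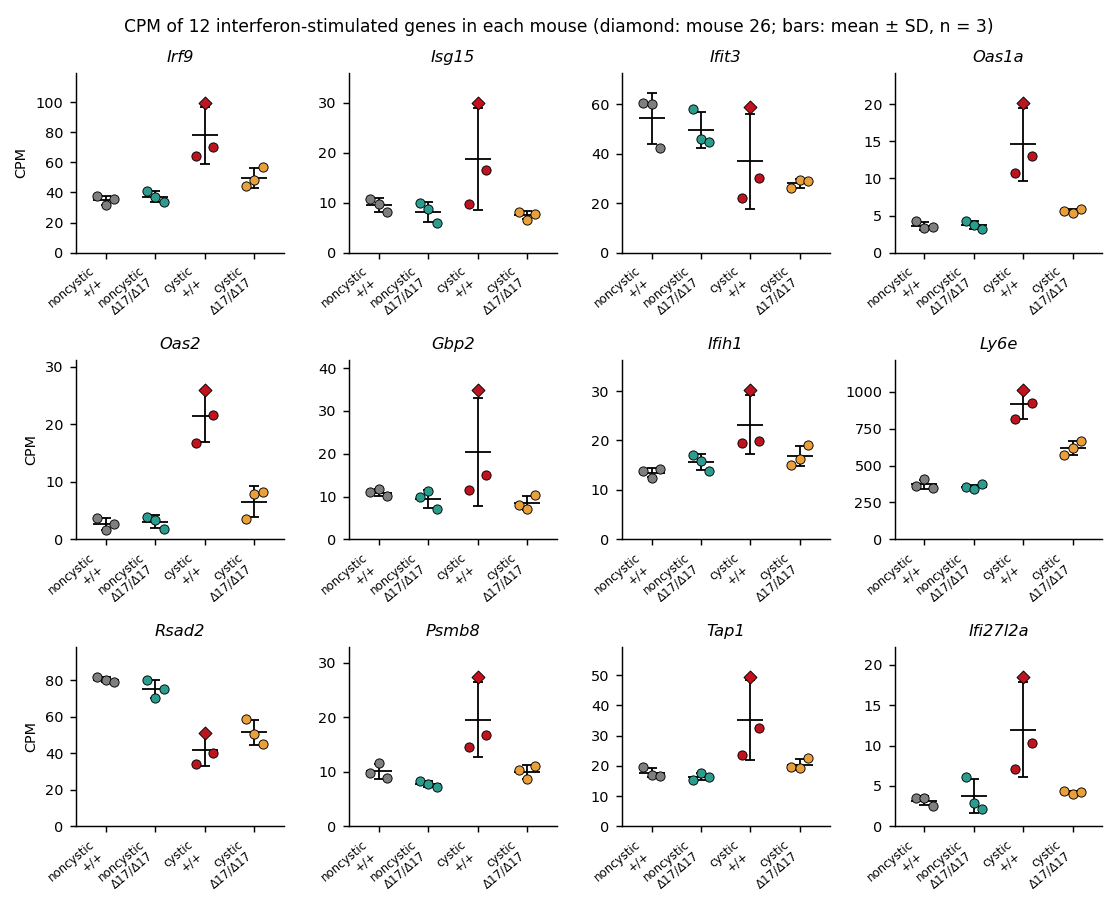
CPM of 12 of the genes in each mouse, by group, each panel with its own linear axis from 0; bars give the mean and SD of 3 mice, and the diamond is mouse 26. *Ly6e*, *Oas1a* and *Oas2* separate the cystic *Pkd2* +/+ mice from the rest with or without the diamond, whereas in *Isg15* and *Gbp2* mouse 25 is near the noncystic mice.

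All 3 genes of antigen processing rose in cystic kidneys and fell with the deletion. *Psmb8* (chr17:34197721-34201454), a catalytic subunit of the immunoproteasome, stood at 9.76, 11.6 and 8.85 CPM in noncystic +/+, 8.34, 7.80 and 7.15 in noncystic Δ17/Δ17, 14.6, 27.4 and 16.7 in cystic +/+ and 10.3, 8.61 and 11.1 CPM in cystic Δ17/Δ17 mice. *Tap1* (chr17:34187553-34197225), a chain of the transporter that brings peptides to class I molecules, stood at 19.6, 16.99 and 16.7 CPM in noncystic +/+, 15.4, 17.5 and 16.4 in noncystic Δ17/Δ17, 23.5, 49.4 and 32.6 in cystic +/+ and 19.5, 19.2 and 22.6 CPM in cystic Δ17/Δ17 mice. The cystic +/+ mice lay above all other mice in both genes. *Psmb8* rose by 0.96 (SE 0.20, edgeR adjusted p = 0.00123) and with the deletion changed by -0.96 (SE 0.20, edgeR adjusted p = 0.0189), and *Tap1* by 0.98 (SE 0.19, edgeR adjusted p = 6.40e-04) and -0.78 (SE 0.19, edgeR adjusted p = 0.0380). *Psmb9*, a further immunoproteasome subunit that overlaps *Tap1* on the other strand, changed by 0.99 (SE 0.24, edgeR adjusted p = 0.00442) and -1.05 (SE 0.24, edgeR adjusted p = 0.0313). Without mouse 26 all 3 were still higher in cystic kidneys, with log2 fold changes of 0.64, 0.66 and 0.58 for *Psmb8*, *Tap1* and *Psmb9*, and none was called lower with the deletion, where *Psmb8* had -0.64 (adjusted p = 0.0517) in the same edgeR test. The deletion calls of all 3 were also lost without mouse 28 or 29. Those of *Tap1* and *Psmb9* were lost without mouse 27 as well, and that of *Psmb9* without mouse 30.

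Of the remaining 5 genes, 4 rose in cystic kidneys. *Ifi27l2a* (chr12:103442167-103443680) stood at 3.48, 3.48 and 2.49 CPM in noncystic +/+, 6.10, 2.89 and 2.20 in noncystic Δ17/Δ17, 7.12, 18.5 and 10.3 in cystic +/+ and 4.37, 4.01 and 4.23 CPM in cystic Δ17/Δ17 mice. It rose by 1.92 (SE 0.35, edgeR adjusted p = 3.94e-04) and changed by -1.50 (SE 0.34, edgeR adjusted p = 0.0301) with the deletion, and without mouse 26 the values were 1.47 (adjusted p = 0.00205) and -1.05 (adjusted p = 0.116) in edgeR's test. The deletion call was also lost without mouse 27, 28, 29 or 30. *Parp14* (chr16:35832874-35871544), an ADP-ribosyltransferase and the most abundant of these 5, stood at 22.8, 24.5 and 25.5 CPM in noncystic +/+, 26.2, 27.7 and 21.6 in noncystic Δ17/Δ17, 31.9, 66.8 and 35.2 in cystic +/+ and 27.5, 33.6 and 33.9 CPM in cystic Δ17/Δ17 mice. It rose by 0.88 (SE 0.21, edgeR adjusted p = 0.00323), and by 0.47 (adjusted p = 0.00849) without mouse 26 in edgeR's test. Its cystic Δ17/Δ17 mice reached the level of mouse 25, and its log2 fold change with the deletion was -0.49 (SE 0.20, edgeR adjusted p = 0.264), not called. *Xaf1*, which opposes an inhibitor of apoptosis, rose by 0.60 (SE 0.19, edgeR adjusted p = 0.0212) and *Rtp4*, a chaperone of membrane receptors, by 0.99 (SE 0.28, edgeR adjusted p = 0.0124). Both calls were lost without mouse 26, at 0.40 and 0.43, and that of *Xaf1* also without mouse 20 or 21. *Ifi44* stood at 10.7, 29.9 and 15.6 CPM in cystic +/+ mice and 18.8 to 31.5 CPM in noncystic mice, not called with all mice and called lower without mouse 26, at -0.74 (adjusted p = 0.00963) in edgeR's test.

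In noncystic kidneys none of the 36 genes was called with the *Pkd2* deletion. By edgeR's test no member had an adjusted, or even an unadjusted, p under 0.05. Of all 24642 genes 1 passed the first (0.00406%) and 1555 passed the second. The tests of limma-trend and DESeq2 called none of the 36 either. The median log2 fold change was 0.02, and the single values ran from -0.37 for *Psmb8* to 0.97 for *Oas3*, a gene of 0 to 13 reads per noncystic mouse. The log2 fold change was -0.06 (SE 0.10, edgeR adjusted p = 0.923) for *Ly6e*, 0.09 (SE 0.14, edgeR adjusted p = 0.924) for *Irf9* and 0.02 (SE 0.23, edgeR adjusted p = 0.9998) for *Oas1a*, each within 1 standard error of 0. The median standard error over the 36 genes was 0.25 on the log2 scale, so small differences could not be detected with 3 mice a group.

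With the deletion in both settings, cystic kidneys differed from noncystic ones in fewer of the 36 genes. Of the 36, 3 were higher and 4 lower, against 12.8% and 10.2% of all genes in the same edgeR test, and the median log2 fold change was -0.05. The share lower was thus near that of all genes and the share higher below it. Fewer of all genes were called as well, against 16.9% and 14.2% in the first comparison. *Ly6e* was higher by a log2 fold change of 0.79 (SE 0.10, edgeR adjusted p = 1.80e-05), *Oas2* by 1.10 (SE 0.33, edgeR adjusted p = 0.0230) and *Irf9* by 0.42 (SE 0.14, edgeR adjusted p = 0.0414). *Rsad2* was lower at -0.55 (SE 0.12, edgeR adjusted p = 0.00305), as were *Mx2* at -0.85 (SE 0.28, edgeR adjusted p = 0.0330), *Ifit3* at -0.82 (SE 0.25, edgeR adjusted p = 0.0234) and *Ifit3b* at -0.81 (SE 0.27, edgeR adjusted p = 0.0388). Mouse 26 takes no part in this comparison except through the shared estimate of spread. The split depends on the scaling: with library totals, which move the median of all genes to 0.15 here, 6 genes were higher and 1 lower. Of all 24642 genes, 5334 were then higher and 1657 lower. The calls of *Ly6e* and *Rsad2* held whichever of the 6 mice was left out, whereas those of *Irf9* and *Oas2* were both lost without mouse 24, 29 or 30. *Ifit3b* lost its call whichever of the 6 was left out, *Mx2* without mouse 22, 23, 29 or 30 and *Ifit3* without mouse 22, 28, 29 or 30. The calls of *Mx2*, *Ifit3* and *Ifit3b* were also lost with library totals. Leaving out mouse 22 or 23 gave 4 calls each, and mouse 29 or 30 gave 2 each.

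Whether the effect of cystic disease differed between the *Pkd2* genotypes was tested as an interaction. By edgeR's test none of the 36 had an adjusted p under 0.05, where 3 of all genes did (0.0122%). An unadjusted p under 0.05 was found in 19 of the 36, against 2053 of all 24642 genes. The median interaction was -0.71 on the log2 scale, and -0.30 without mouse 26. The lowest adjusted p belonged to *Oas1a*, at -1.40 (SE 0.31, edgeR adjusted p = 0.150), followed by *Oas2* at -1.90 (SE 0.47, edgeR adjusted p = 0.215) and *Ly6e* at -0.51 (SE 0.14, edgeR adjusted p = 0.266). DESeq2's Wald test called *Oas1a* and no other member, and without mouse 25 edgeR's test called *Oas1a* and *Oasl2*. A difference between the deletion's effect in cystic and in noncystic kidneys was thus not established for any of the 36 genes by edgeR's test.

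Levels can be compared between genes only per length, so CPM was divided by the kilobases of exon of each gene. Averaged over all 12 mice, *Ly6e* stood highest at 149 CPM per kilobase, followed by *Bst2* at 61.4, *Ifit3* at 24.2, *Isg15* at 14.6 and *Rsad2* at 14.3. *Oas3* was lowest at 0.0815 CPM per kilobase, after *Mx1* at 0.198 and *Ddx60* at 0.364. In the cystic +/+ group *Ifi27l2a* (25.9) and *Isg15* (24.9 CPM per kilobase) exceeded *Ifit3* (21.2), whereas in the noncystic +/+ group *Ifit3* (31.1) was above both (6.80 and 12.6). These differences in level between genes also depend on the exon models.

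The wider pathway was read from 115 further genes, of which 114 were in the table and 94 passed the cutoff on low counts. Between cystic and noncystic *Pkd2* +/+ kidneys 52 of the 94 were higher and 3 lower in edgeR's test (16.9% and 14.2% of all genes), with a median log2 fold change of 0.52. Without mouse 26, 40 were higher and 3 lower (14.9% and 12.5% of all genes), with a median of 0.29. The 20 interferon genes themselves were at or near 0, and 5 of them had any read. Over all 12 mice 10 reads were counted, and no mouse had more than 3. Mouse 25 had 3 reads, all of *Ifng*, at 0.116 CPM. The noncystic mice 23 and 20 had 0.164 and 0.114 CPM of interferon genes, so the reads were not confined to cystic mice. A count of 0 allows up to 3 counts, and reads that fit several interferon alpha genes alike may not have been counted. Mouse 26 had 1 interferon read, of *Ifng*.

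Of the receptors and kinases 7 of 9 rose, and 5 of 9 without mouse 26, against the same shares of all genes. *Ifnlr1*, the receptor chain for type III interferon, went from a mean of 4.94 ± 0.475 to 14.3 ± 0.441 CPM (SD, n = 3 each), a log2 fold change of 1.53 (SE 0.16, edgeR adjusted p = 2.00e-06), and *Ifnar1*, a chain of the type I receptor, rose by 0.58 (SE 0.07, edgeR adjusted p = 4.03e-06). *Ifngr2*, of the type II receptor, rose by 0.51 (SE 0.09, edgeR adjusted p = 3.76e-04) and the kinase gene *Tyk2* by 0.46 (SE 0.09, edgeR adjusted p = 8.16e-04). None of the 9 was called with the deletion in cystic kidneys. Among 10 transcription factors 4 rose and 1 fell, against 16.9% and 14.2% of all genes. Those that rose included *Irf1* by 0.77 (SE 0.13, edgeR adjusted p = 1.45e-04) and *Irf5* by 0.94 (SE 0.16, edgeR adjusted p = 2.47e-04). *Ciita*, the class II activator, rose by 1.59 (SE 0.29, edgeR adjusted p = 3.76e-04). *Irf3*, which responds to the sensors, changed by -0.27 (SE 0.09, edgeR adjusted p = 0.0268). Without mouse 26, 4 rose and none fell (14.9% and 12.5% of all genes), *Irf3* being at -0.18.

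The counts of the next lists stand against 16.9% of all genes higher and 14.2% lower, or 14.9% and 12.5% without mouse 26. Inhibitors of the pathway included the gene with the greatest rise of the 94. *Socs3*, which blocks cytokine receptors, stood at 7.53, 5.47 and 9.72 CPM in noncystic and 65.9, 85.4 and 74.96 CPM in cystic +/+ mice, a log2 fold change of 3.31 (SE 0.26, edgeR adjusted p = 1.02e-07), and *Socs1* rose by 1.04 (SE 0.25, edgeR adjusted p = 0.00403). Without mouse 26 these were 3.21 and 0.84, both still called. The phosphatase genes *Ptpn11* and *Ptpn6* rose by 0.28 and 0.30, so that 4 of 6 inhibitors were called, and 3 without mouse 26, *Ptpn6* being lost. Upstream sensors and adaptors rose in 9 of 12 cases, and in 8 without mouse 26, among them *Tmem173* (which encodes STING) by 1.81 (SE 0.18, edgeR adjusted p = 1.14e-06), *Traf3* by 1.07 (SE 0.12, edgeR adjusted p = 2.48e-06), *Cgas* by 1.78 (SE 0.23, edgeR adjusted p = 1.22e-05) and *Ddx58* (RIG-I) by 0.76 (SE 0.10, edgeR adjusted p = 1.60e-05). Of 34 further type I responsive genes 20 rose, such as *Lgals9* (0.95), *Adar* (0.74), *Parp9* (0.79) and *Eif2ak2* (0.75), and 1 fell, against 16 and 2 without mouse 26. Of 23 targets of interferon gamma and genes of class I presentation 8 rose and 1 fell, against 4 and 1 without mouse 26. The rises were then near the share of all genes (14.9%), and the median log2 fold change went from 0.43 to 0.12. The chemokine gene *Cxcl10* rose by 1.96 (SE 0.38, edgeR adjusted p = 6.94e-04), the class I gene *H2-K1* by 0.42 and the immunoproteasome gene *Psmb10* by 0.56, while *Cxcl11*, at a mean of 0.128 CPM in cystic kidneys, changed by -2.38 (SE 0.60, edgeR adjusted p = 0.00565), and all 4 of these kept their calls without mouse 26, with *Cxcl10* at 1.36.

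With the deletion in cystic kidneys 7 of the 94 pathway genes were lower and none higher (1.04% and 1.19% of all genes), with a median log2 fold change of -0.35. Without mouse 26, 2 were lower, *Ifi35* and *Ciita* (0.604% of all genes), with a median of -0.21. The 7 were *Ifi35* (-0.61), *Socs3* (-1.11), the class I genes *B2m* (-0.51), *H2-K1* (-0.44) and *H2-D1* (-0.46), *Ciita* (-1.45) and *Batf2* (-1.72). In noncystic kidneys none of the 94 was called by edgeR's test. With the deletion in both settings 20 of the 94 were higher and 4 lower in cystic kidneys (12.8% and 10.2% of all genes), 6 of the 12 sensors and adaptors and 4 of the 6 inhibitors among the higher ones, and the interaction called none.

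The macrophage markers moved with the median of the 36 genes in the first and second comparisons, but not with the deletion in both settings. In cystic +/+ kidneys all 11 were higher than in noncystic ones (16.9% of all genes), with a median log2 fold change of 1.80. With the deletion in cystic kidneys 5 were lower (1.04% of all genes), with a median of -0.56. With the deletion in both settings all 11 were still higher in cystic kidneys (12.8% of all genes), with a median of 1.18. There 3 of the 36 genes were higher and 4 lower, with a median of -0.05. A link between markers and genes was not tested. The summed CPM of the markers in cystic +/+ kidneys was 2.95 times that of noncystic +/+ kidneys. It was 3.41 times for the OAS family, 1.97 times for antigen processing and 0.885 times for the IFIT family. With the deletion the marker sum was 0.664 times that of cystic +/+ kidneys, against 0.387, 0.540 and 0.812 times for the same families. For the other roles these ratios ran from 1.62 to 1.93 and from 0.492 to 0.706. Without mouse 26 the 11 markers were all still higher in cystic +/+ kidneys (14.9% of all genes), with a median of 1.68. With the deletion in cystic kidneys 1 was then lower (0.604% of all genes), with a median of -0.45. The ratios of cystic to noncystic +/+ kidneys were then 2.72 for the markers, 2.71 for the OAS family, 1.56 for antigen processing and 0.651 for the IFIT family. With the deletion they were 0.720, 0.486, 0.684 and 1.10, so that the IFIT ratio turned from below to above 1. For the other roles they then ran from 1.13 to 1.79 and from 0.709 to 0.892. 

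**Figure D4:**
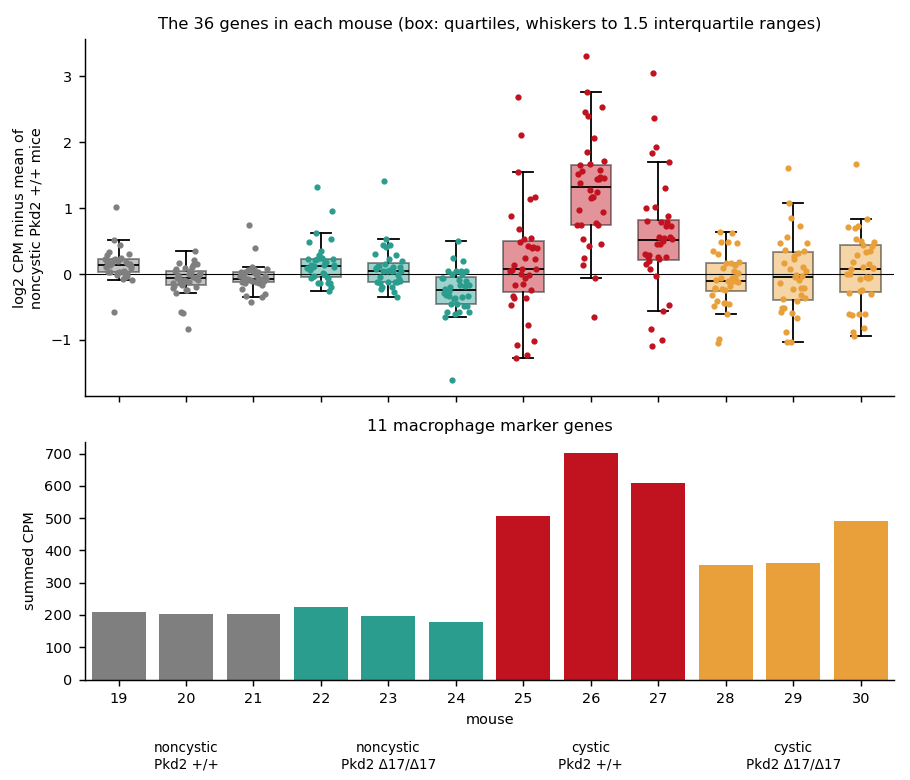
Top, the 36 genes in each mouse as log2 CPM minus the mean of the noncystic *Pkd2* +/+ mice, 1 point a gene, with box plots; bottom, the summed CPM of 11 macrophage markers. The median of the genes is 1.33 in mouse 26 and between -0.25 and 0.52 in the other mice, while the marker sum is high in all 6 cystic mice, from 354 to 701 CPM.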

How the data were processed

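Whole-kidney RNA of 12 mice was sequenced, and the deposited table holds raw counts per gene, which the authors made by trimming reads with Trim Galore 0.6.3 and aligning them to GRCm38 with STAR 2.5.3a and its gene counting. Which strand column was taken is not given in the sources used here, so reads of overlapping genes on opposite strands may be mixed. Rows that name no gene symbol (343, with 0.0225% of reads) were kept in the totals. Groups came from the labels, and the numbers 19 to 30 were taken as mouse numbers.

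Genes with a mean log2 CPM of at least -3 were tested (24642) with edgeR 4.0.16 in R 4.3.3: quasi-likelihood test, TMM factors, a mean for each group with all mice in 1 fit (residual degrees of freedom 8), Benjamini-Hochberg adjustment over all genes and a threshold of 0.05. The test was checked on simulated counts. Alternatives were limma-trend (limma 3.58.1, prior count 3), DESeq2 1.42.0, other scalings, other cutoffs (none, or 10 counts in every mouse), only the compared groups, *Xist* as a covariate, and each mouse left out. Coordinates are GENCODE M21 on GRCm38, and promoters RefSeq on GRCm38.p6. The 36 genes, the pathway and marker lists and the tests were chosen with earlier results of these data known. Values of every mouse are given for the called genes of lowest p, up to 8 a direction, and for the most abundant gene of each role, and the others by range.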

Additional observations from a re-analysis of the deposited data

How the results depend on the processing

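The number of the 36 genes called moved by more than 1.5 times under some alternatives. With the *Pkd2* deletion in cystic kidneys it was 11, against 28 without a cutoff on low counts, 3 with only the compared groups fitted, and 3 to 23 with 1 mouse left out. For cystic against noncystic kidneys with the deletion in both it was 7, against 12 without the cutoff and 2 to 6 with 1 mouse left out. The interaction called 0, against 1 in DESeq2, 19 without the cutoff and 0 to 2 with 1 mouse left out. Calls over all genes moved too. With the deletion in cystic kidneys 256 of 24642 were lower, against 824 of 33191 without the cutoff and 68 of 24466 with only the compared groups. The interaction called 2 genes positive and 1 negative, against 72 and 34 in DESeq2 and 294 and 272 without the cutoff. Without the cutoff 33191 genes were tested and the estimated prior degrees of freedom were infinite, against 8.12, so a gene's test no longer used its own spread between mice. The median log2 fold change ran from 0.30 to 0.94 for cystic against noncystic +/+ kidneys, from -0.99 to -0.37 for the deletion in cystic kidneys and from -0.90 to -0.30 for the interaction with 1 mouse left out, in each case nearest to 0 without mouse 26. For cystic against noncystic +/+ kidneys the count stayed within 1.5 times of 21 in every alternative run, and no called gene changed sign. Of the values of single called genes, 29 of 292, 44 of 154 and 33 of 98 lost their call in the first comparison, the deletion in cystic kidneys and cystic against noncystic with the deletion. No paired analysis was possible because the mouse numbers are not shared between groups. Depth limits *Oas3* and *Mx1*, which had 43 reads or fewer in every mouse.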
